A study of Canis lupus with 20 samples.

Results

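The SLC25A genes of the mitochondrial carrier family were examined in left atrium and left ventricle of dogs after uninephrectomy, the surgical removal of 1 kidney, and after sham surgery. A member was any gene whose probe sets carry a single symbol of the form SLC25A followed by a number. Such symbols stood on 85 probe sets of 41 genes, among 15115 genes with a single-symbol probe set, and each gene was represented by its probe set with the highest mean over all 20 arrays. Of the 41 members 35 were tested, and 6 lay below the filter on dim probe sets. Dogs described only as normal had a right-sided uninephrectomy or a sham operation, 6 dogs each, and heart tissue was taken 12 weeks later. The 4 groups were left atrium of uninephrectomized dogs, left atrium of sham dogs, left ventricle of uninephrectomized dogs and left ventricle of sham dogs, with 5 Affymetrix canine arrays each and no technical replicates. The labels give neither the age, sex nor breed of the dogs, nor which atrial and ventricular arrays share a dog, and the p-values measure the spread between these arrays.

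SLC25 proteins are small carriers, most of which sit in the inner mitochondrial membrane and exchange metabolites between cytosol and matrix. In heart muscle they bring in ADP and phosphate, send out ATP, and pass the reducing equivalents of cytosolic NADH inward through the malate-aspartate shuttle. Others carry iron, nucleotides, cofactors, amino acids or glutathione. SLC25A17 lies in the peroxisome and SLC25A46 in the outer mitochondrial membrane, where it takes part in mitochondrial fusion and fission, so neither is an inner-membrane carrier although the family name covers both.

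Values are deposited log2 probe set signals, and a difference of 1 is a 2-fold change. They ranged from 0.43 to 15.0 over all arrays, and the arrays had medians of 2.33 to 2.39 with upper quartiles of 5.10 to 5.53. Signals of different probe sets are not comparable, so levels are compared only within a member. Of the 35 tested members 11 stayed under a signal of 3 in all arrays, where signals crowd at the low end and differences are compressed. The mean signal of 11 cardiomyocyte markers was 13.04 to 13.23 in uninephrectomized atria against 13.40 to 13.59 in uninephrectomized ventricles, and 13.14 to 13.22 in sham atria against 13.38 to 13.55 in sham ventricles. The tissue labels were checked with MYL7, the atrial myosin light chain, and MYL2, the ventricular one. MYL7 was 14.24 ± 0.06 in uninephrectomized atria against 11.80 ± 0.20 in uninephrectomized ventricles and 14.33 ± 0.10 in sham atria against 12.31 ± 0.37 in sham ventricles (SD, n = 5 each). MYL2 was 4.72 ± 1.59 in uninephrectomized atria against 14.55 ± 0.09 in uninephrectomized ventricles and 3.81 ± 1.05 in sham atria against 14.66 ± 0.28 in sham ventricles. The mean gap between 3′ and more 5′ control probe sets, which widens with shorter RNA or labelled product, was 1.10 ± 0.26 in uninephrectomized atria, 1.19 ± 0.19 in sham atria, 1.14 ± 0.15 in uninephrectomized ventricles and 1.42 ± 0.27 in sham ventricles (SD, n = 5 each).

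Atrium and ventricle differed in many carriers, and in both directions. In uninephrectomized dogs 15 of the 35 tested members (42.9%) passed a Benjamini-Hochberg adjusted p of 0.05 in limma, against 27.3% of all 30047 tested probe sets. Of these 6 were higher and 9 lower in the atrium, where 14.7% and 12.5% of all tested probe sets were higher and lower. In sham dogs 12 members (34.3%) passed, 6 higher and 6 lower, against 20.8% of all tested probe sets (11.2% higher and 9.62% lower). All 17 members called in either operation had a signal over 3 in some array. The members called in uninephrectomized dogs had 19 other tested probe sets, of which 17 had the same sign and 9 were also called with it. Those called in sham dogs had 13, of which 11 had the same sign and 4 were also called with it. The 2 contrasts use different arrays, and 10 members were called in both with the same sign. These are 66.7% of the uninephrectomized list and 83.3% of the sham list. The share of all tested probe sets called in both was not computed, so the overlap is not read as a trait of the carriers. SLC25A1, SLC25A6, SLC25A17 and SLC25A27 were higher in the atrium in both, and SLC25A11, SLC25A13, SLC25A30, SLC25A36, SLC25A37 and SLC25A46 were lower in both. The atrial and ventricular arrays did not overlap for 10 members (28.6%) in uninephrectomized dogs, against 21% of all tested probe sets, and for 6 members (17.1%) in sham dogs, against 14.3%. The median difference over the tested members was -0.05 in uninephrectomized and -0.07 in sham dogs, beside -0.02 and -0.01 over all tested probe sets. The sham count was 7 without sham atrial array 2, against 18.1% of all tested probe sets, and 7 without sham ventricular array 1, against 18.5%. With the sham arrays alone in the fit it was 6, against 16.6%. Over 32 alternative settings SLC25A6, SLC25A11, SLC25A13, SLC25A14, SLC25A17, SLC25A27, SLC25A30 and SLC25A37 kept their call in all 32 in uninephrectomized dogs, and SLC25A11, SLC25A13, SLC25A17 and SLC25A37 in sham dogs. The sham call of SLC25A1 held in 7 of the 32. Some settings leave out an array of the other operation, which changes only the shared spread and not the difference, so they test a call weakly. The 32 also include 1 fit chosen after seeing the data. In whole tissue, fewer cells of a type and less RNA per cell cannot be told apart.

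**Figure D1:**
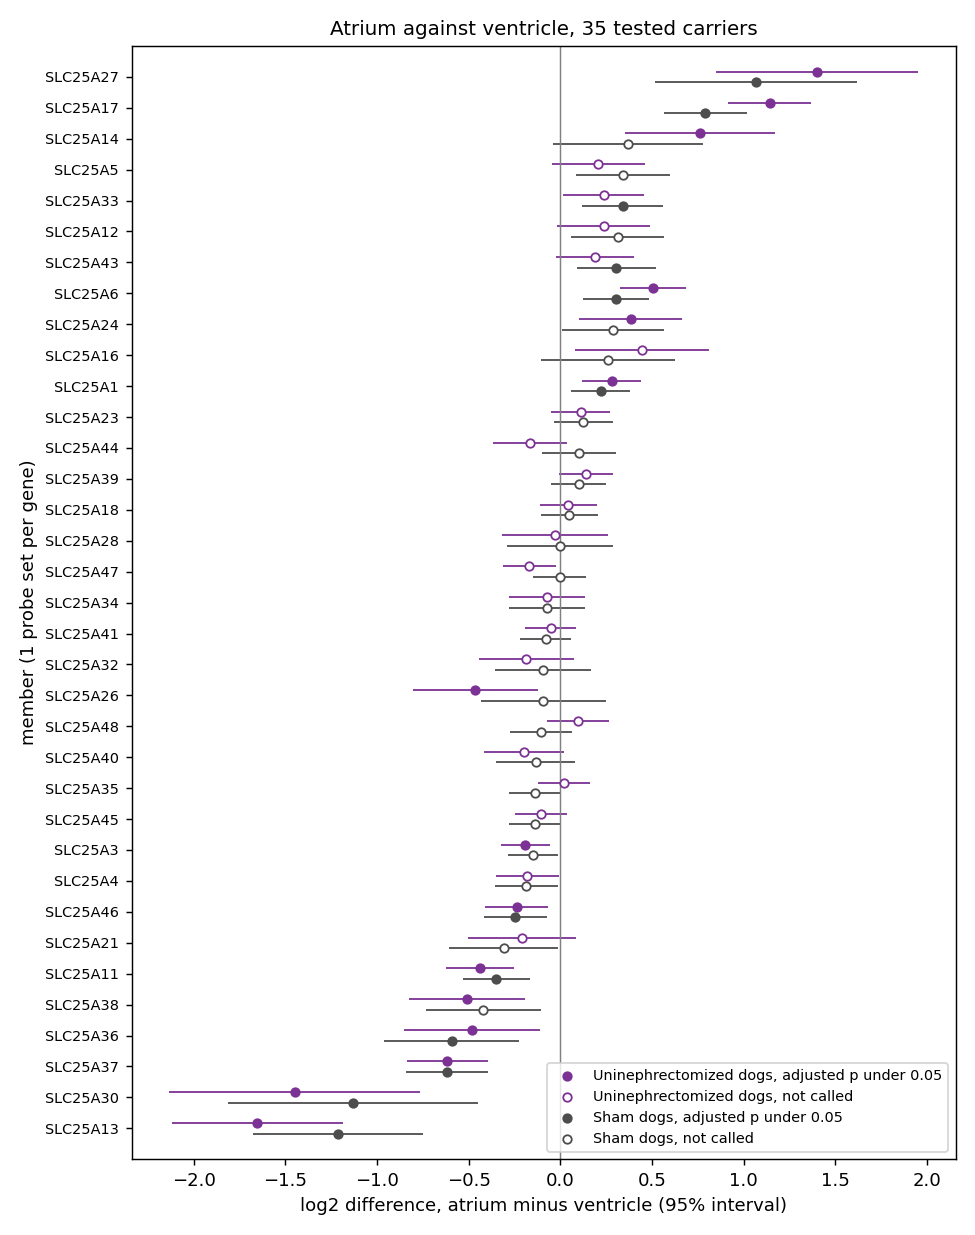
Log2 difference of atrium minus ventricle for the 35 tested members in uninephrectomized dogs (upper, purple) and sham dogs (lower, grey), with 95% intervals from limma and filled points for an adjusted p under 0.05. SLC25A27 and SLC25A17 are the farthest to the right and SLC25A13 and SLC25A30 the farthest to the left in both operations, while the small negative differences of SLC25A3 and SLC25A4 in sham dogs and of SLC25A4 in uninephrectomized dogs turn positive after quantile normalization.

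The ADP/ATP carriers, which exchange cytosolic ADP for matrix ATP, and SLC25A3, which imports phosphate, did not share 1 direction. Of the 7 tested carriers of adenine nucleotides and phosphate, 2 were higher and 1 lower in the atrium of uninephrectomized dogs, and 1 was higher and none lower in sham dogs. The median difference of these 7 was 0.11 in uninephrectomized and 0.13 in sham dogs. SLC25A6, an ADP/ATP carrier found in many tissues, gave 11.41, 11.43, 11.46, 11.56 and 11.39 in uninephrectomized atria, against 11.15, 10.74, 10.99, 10.86 and 10.99 in uninephrectomized ventricles. In sham dogs it gave 11.22, 11.46, 11.32, 11.28 and 11.53 in atria, against 11.02, 11, 11.33, 11.03 and 10.91 in ventricles. The chambers were apart in uninephrectomized dogs, and in sham dogs a single ventricular array, number 3, lay among the atria. The difference was 0.50 ± 0.09 (SE, adjusted p = 0.000237 in limma) in uninephrectomized and 0.30 ± 0.09 (adjusted p = 0.0159) in sham dogs, so SLC25A6 was called higher in the atrium in both. Its other probe set was called in uninephrectomized dogs (0.34 ± 0.11, adjusted p = 0.0251) but not in sham dogs (0.23 ± 0.11, adjusted p = 0.136). The sham call of the chosen probe set was lost with the sham arrays alone in the fit.

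SLC25A5, the ADP/ATP carrier associated with proliferating cells, gave 10.41, 10.12, 10.63, 10.48 and 10.63 in uninephrectomized atria, against 10.15, 10.41, 10.30, 10.05 and 10.33 in uninephrectomized ventricles. It gave 10.35, 10.83, 10.62, 10.45 and 11.05 in sham atria, against 10.26, 10.31, 10.49, 10.29 and 10.25 in sham ventricles. The chambers overlapped in both operations. The difference was 0.21 ± 0.12 (SE, adjusted p = 0.225 in limma) in uninephrectomized and 0.34 ± 0.12 (adjusted p = 0.0527) in sham dogs, positive like that of SLC25A6 but not called. The sham difference was called when 1 of sham atrial arrays 1 and 4, sham ventricular array 3 and uninephrectomized atrial array 2 was left out, at 0.34 to 0.42 (adjusted p from 0.0193 to 0.0421). It was also called with a 50% filter, quantile normalization, or a trended and robust spread estimate. Averaging probe sets per gene gave a call as well. SLC25A5 has only 1 probe set, so its own values were unchanged there, and only the set of tests and the shared spread differed. The 3′ gap as a covariate gave a call too, with or without the replicate number as a block. In the other settings it was not called.

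SLC25A4, the main ADP/ATP carrier of heart and skeletal muscle, lay on the other side. It gave 14, 14.07, 13.85, 14.15 and 13.99 in uninephrectomized atria, against 14.24, 14.26, 14.13, 14.26 and 14.05 in uninephrectomized ventricles. The sham arrays read 14.08, 14.14, 14.03, 14.12 and 14 in atria, against 14.29, 13.99, 14.37, 14.15 and 14.49 in ventricles. Atrial and ventricular arrays overlapped in both. The difference was -0.18 ± 0.08 (SE, adjusted p = 0.115 in limma) in uninephrectomized and -0.19 ± 0.08 (adjusted p = 0.121) in sham dogs, and after quantile normalization of the arrays it became 0.05 and 0.03, uncalled and with the opposite sign. The other probe set of SLC25A4 differed by -0.25 ± 0.06 (adjusted p = 0.0025) in uninephrectomized and -0.15 ± 0.06 (adjusted p = 0.0713) in sham dogs. With its probe sets averaged SLC25A4 was called lower in both, at -0.22 (adjusted p = 0.00618) and -0.17 (adjusted p = 0.0364). Without sham ventricular array 2 the sham difference was -0.25 (adjusted p = 0.0234).

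SLC25A3 gave 13.60, 13.56, 13.51, 13.69 and 13.53 in uninephrectomized atria, against 13.71, 13.78, 13.73, 13.90 and 13.73 in uninephrectomized ventricles. It gave 13.76, 13.80, 13.68, 13.81 and 13.57 in sham atria, against 13.84, 13.78, 13.98, 13.78 and 13.98 in sham ventricles. Every uninephrectomized atrium was below every uninephrectomized ventricle, and the sham chambers overlapped. The difference was -0.19 ± 0.06 (SE, adjusted p = 0.033 in limma) in uninephrectomized and -0.15 ± 0.06 (adjusted p = 0.108) in sham dogs. After quantile normalization the uninephrectomized difference was -0.00 (adjusted p = 0.993) and the sham difference 0.07 (adjusted p = 0.392), so neither was called. Its other probe set, as deposited, was called lower in both, at -0.17 ± 0.05 with an adjusted p of 0.0204 in uninephrectomized and 0.0255 in sham dogs. With the probe sets averaged SLC25A3 was called lower in both as well, at -0.18 (adjusted p = 0.0145) and -0.16 (adjusted p = 0.0352). The uninephrectomized call of the chosen probe set was lost when any of uninephrectomized atrial arrays 2, 3 and 5 or ventricular arrays 2 and 4 was left out (adjusted p from 0.0607 to 0.092). SLC25A24, a calcium-regulated exchanger of ATP-Mg for phosphate, was higher in the atrium at 4.70 ± 0.15 in uninephrectomized atria against 4.31 ± 0.25 in uninephrectomized ventricles (SD, n = 5; difference 0.38 ± 0.13, SE, adjusted p = 0.0389 in limma). In sham dogs its difference was 0.29 ± 0.13 (adjusted p = 0.142), and the uninephrectomized call held in 24 of the 32 settings. Its other probe set had differences of -0.02 in uninephrectomized and 0.02 in sham dogs (adjusted p = 0.81 and 0.818). The related SLC25A23 and SLC25A41 stayed under a signal of 3 and had no called difference, and SLC25A25 and the testis ADP/ATP carrier SLC25A31 were below the filter.

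**Figure D2:**
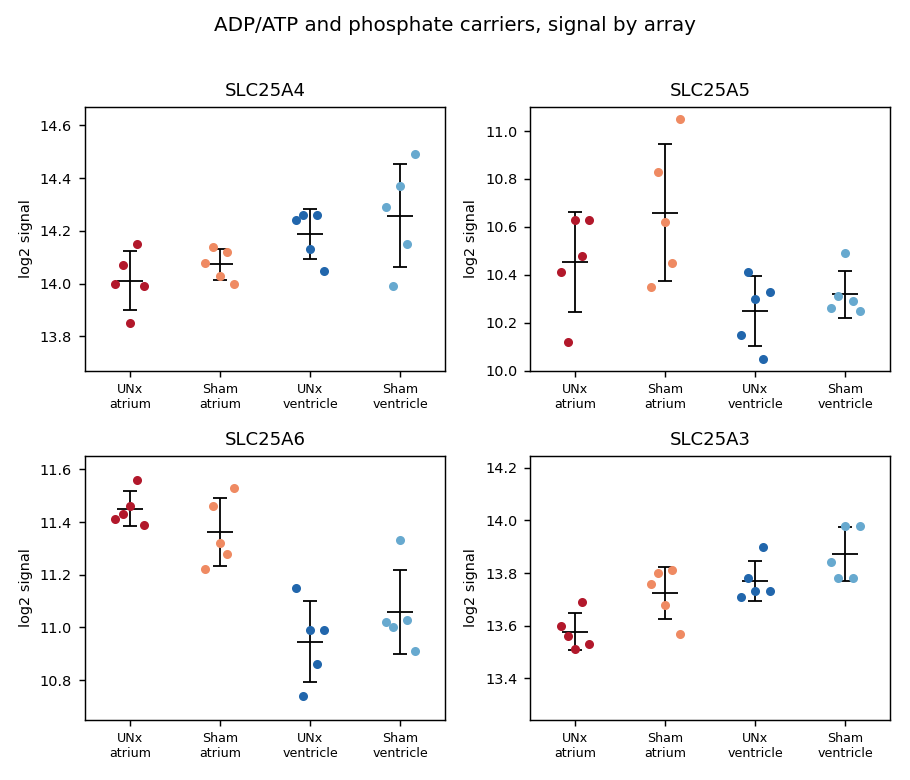
Log2 signal of the ADP/ATP carriers SLC25A4, SLC25A5 and SLC25A6 and of the phosphate carrier SLC25A3 in each of 5 arrays per group, with the mean and SD as bars. SLC25A6 separates the uninephrectomized chambers with atria from 11.39 to 11.56 and ventricles from 10.74 to 11.15, while SLC25A4 and SLC25A3 have lower atrial means, a direction that quantile normalization turns for SLC25A4 in both operations and for SLC25A3 in sham dogs.

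The malate-aspartate shuttle uses SLC25A11, which exchanges malate for 2-oxoglutarate, and the aspartate/glutamate carriers SLC25A12 and SLC25A13. Of the 6 tested carriers of di- and tricarboxylates, aspartate and glutamate, 1 was higher and 2 lower in the atrium in each operation, with median differences of -0.08 in uninephrectomized and -0.13 in sham dogs. SLC25A13, also called citrin and the liver type of the pair, had the most negative difference of all tested members in both operations. It gave 6.50, 6.10, 6.52, 5.87 and 6.30 in uninephrectomized atria, against 7.98, 8.17, 8.16, 7.83 and 7.43 in uninephrectomized ventricles. In sham dogs it gave 6.85, 6.50, 6.08, 5.96 and 5.96 in atria, against 8.20, 7.65, 6.91, 7.24 and 7.40 in ventricles. No atrium reached the lowest ventricle in either operation. SLC25A13 was 3.15-fold lower in the atrium of uninephrectomized dogs (difference -1.65 ± 0.22, SE, adjusted p = 2.09e-05 in limma) and 2.32-fold lower in sham dogs (difference -1.21 ± 0.22, adjusted p = 0.00063).

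SLC25A12, also called aralar and the form typical of heart and brain, went the other way without being called. It gave 10.54, 10.42, 10.80, 10.25 and 10.53 in uninephrectomized atria, against 10.22, 10.20, 10.36, 10.43 and 10.15 in uninephrectomized ventricles. It gave 10.71, 10.39, 10.70, 10.34 and 10.25 in sham atria, against 10.30, 10.20, 10.46, 9.94 and 9.93 in sham ventricles. The chambers overlapped in both operations. The difference was 0.24 ± 0.12 (SE, adjusted p = 0.16 in limma) in uninephrectomized and 0.31 ± 0.12 (adjusted p = 0.0732) in sham dogs. Sham arrays of the same number deviated together between the chambers, and SLC25A12 was higher in the atrium in 5 of 5 pairs. This is not particular to SLC25A12. Among other members not called in sham dogs, SLC25A5 and SLC25A24 were higher and SLC25A21 and SLC25A45 lower in 5 of 5 pairs. The share over all tested probe sets was not computed. With the replicate number as a block in both operations the sham difference of SLC25A12 had an adjusted p of 0.0256 in limma. The spread of that fit also came from uninephrectomized arrays, whose numbers do not pair. Without a block the sham difference was also called without sham atrial array 5 (0.37, adjusted p = 0.0487) or sham ventricular array 3 (0.39, adjusted p = 0.0296). Quantile normalization and a fit with a weight for each array gave a call too. In the other settings it was not called.

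SLC25A11 was lower in the atrium. It gave 9.90, 9.48, 9.96, 9.61 and 9.83 in uninephrectomized atria, against 10.23, 10.16, 10.28, 10.14 and 10.16 in uninephrectomized ventricles. The sham arrays read 9.92, 9.80, 9.91, 9.88 and 9.63 in atria, against 10.26, 10.34, 10.08, 10.09 and 10.12 in ventricles. The chambers did not overlap in either operation, with differences of -0.44 ± 0.09 (SE, adjusted p = 0.000953 in limma) in uninephrectomized and -0.35 ± 0.09 (adjusted p = 0.00708) in sham dogs. SLC25A1, which exports citrate for lipid synthesis, had means of 2.93 ± 0.07 in uninephrectomized atria against 2.65 ± 0.05 in uninephrectomized ventricles and 2.97 ± 0.14 in sham atria against 2.75 ± 0.16 in sham ventricles (SD, n = 5 each). It was called higher in both operations (adjusted p = 0.0103 and 0.049 in limma), but in sham dogs not with the replicate number as a block (adjusted p = 0.0833). The uninephrectomized call held in 31 and the sham call in only 7 of the 32 settings. Its other probe set, also with a mean under 3, had the opposite sign. The glutamate carrier SLC25A18 and the oxodicarboxylate carrier SLC25A21 were not called.

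**Figure D3:**
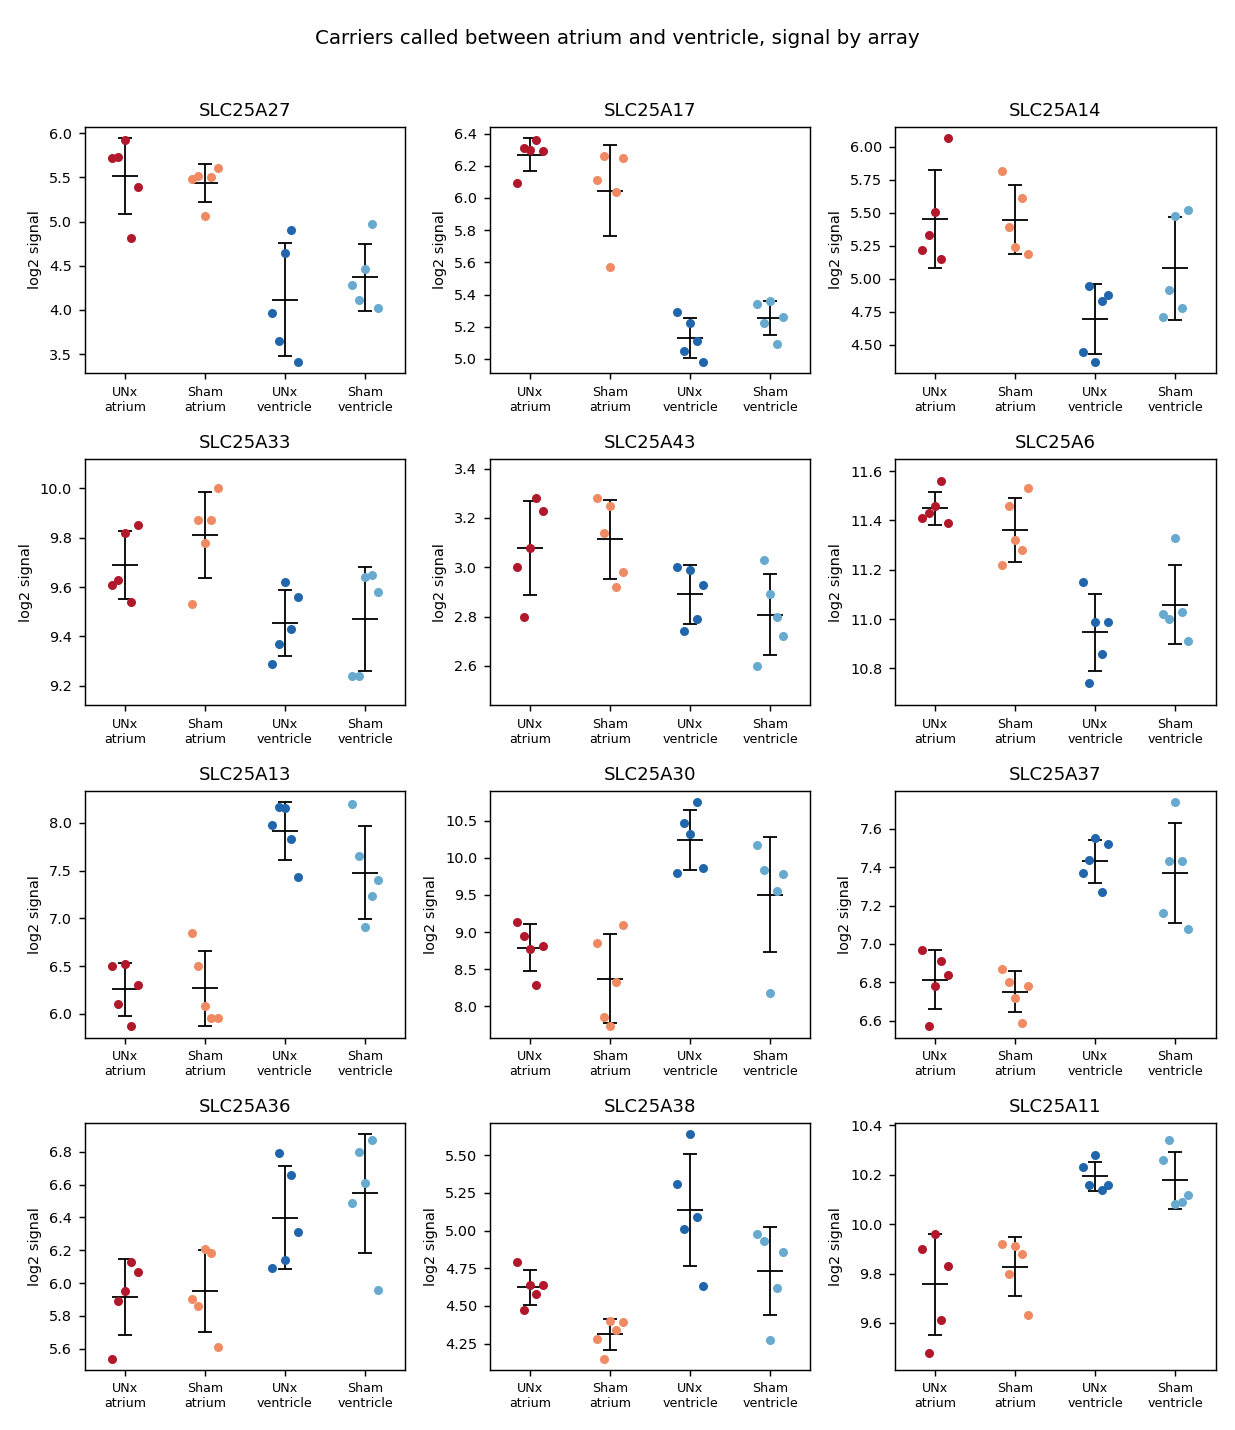
Log2 signal in each of 5 arrays per group, with mean and SD as bars, for 12 members called between atrium and ventricle in at least 1 operation, the 6 with the highest and the 6 with the lowest difference in sham dogs. SLC25A17 has atria from 5.57 to 6.36 and ventricles from 4.98 to 5.36, and SLC25A13 has atria from 5.87 to 6.85 and ventricles from 6.91 to 8.20.

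The carriers most like uncoupling proteins moved in opposite directions. Of the 7 tested uncoupling-like and less characterised members, 2 were higher and 2 lower in the atrium in each operation. SLC25A27, also called UCP4 and known mainly from brain, gave 5.72, 5.73, 5.92, 4.82 and 5.39 in uninephrectomized atria, against 3.97, 3.65, 4.65, 4.90 and 3.41 in uninephrectomized ventricles. In sham dogs it gave 5.48, 5.52, 5.06, 5.51 and 5.61 in atria, against 4.28, 4.11, 4.46, 4.97 and 4.02 in ventricles. Only ventricular array 4 of the uninephrectomized dogs, at 4.90, passed an atrium, and the sham chambers were apart. SLC25A27 was 2.64-fold higher in the atrium of uninephrectomized dogs (difference 1.40 ± 0.26, SE, adjusted p = 0.000577 in limma) and 2.10-fold higher in sham dogs (difference 1.07 ± 0.26, adjusted p = 0.0066). With the replicate number as a block and the 3′ gap as a covariate together, the sham call was lost (0.80, adjusted p = 0.117), and it held with either alone (adjusted p = 0.0203 with the block and 0.0237 with the gap). Its other probe set was called with the same sign in both operations. The 2 Schwann and neuronal markers with a probe set stayed under a signal of 3 in all arrays.

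SLC25A14, also called UCP5 or BMCP1, gave 5.22, 5.33, 5.51, 5.15 and 6.07 in uninephrectomized atria, against 4.45, 4.95, 4.37, 4.83 and 4.88 in uninephrectomized ventricles. It gave 5.82, 5.39, 5.24, 5.61 and 5.19 in sham atria, against 4.71, 4.92, 5.48, 4.78 and 5.52 in sham ventricles. The uninephrectomized chambers were apart and the sham chambers overlapped through ventricular arrays 3 and 5. The difference was 0.76 ± 0.20 (SE, adjusted p = 0.00657 in limma) in uninephrectomized and 0.37 ± 0.20 (adjusted p = 0.202) in sham dogs. The difference between these 2 values, 0.40 ± 0.28, was not called (unadjusted p = 0.169), so SLC25A14 is not shown to differ between the operations. The other probe set of SLC25A14, with a mean of 2.95 over all arrays, was called in neither operation. It differed by 0.24 ± 0.12 (adjusted p = 0.156 in limma) in uninephrectomized and 0.05 ± 0.12 (adjusted p = 0.831) in sham dogs.

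SLC25A30, or KMCP1, a relative of SLC25A14 first described in kidney, was lower in the atrium. It gave 9.13, 8.95, 8.77, 8.29 and 8.81 in uninephrectomized atria, against 9.80, 10.47, 10.32, 10.75 and 9.86 in uninephrectomized ventricles. The sham arrays read 8.85, 7.85, 7.73, 8.33 and 9.10 in atria, against 10.17, 9.83, 8.18, 9.55 and 9.78 in ventricles. Ventricular array 3 of the sham dogs, at 8.18, was the only ventricle within the atrial range. SLC25A30 was 2.73-fold lower in the atrium of uninephrectomized dogs (difference -1.45 ± 0.33, SE, adjusted p = 0.00257 in limma) and 2.19-fold lower in sham dogs (difference -1.13 ± 0.33, adjusted p = 0.0181). The sham call was lost without sham atrial array 2 (-1.0, adjusted p = 0.0517) or sham ventricular array 1 (-0.96, adjusted p = 0.0538). Its sham SDs, 0.60 in atria and 0.77 in ventricles, were the highest of all tested members in those groups. The other probe set of SLC25A30, with a mean of 1.94 over all arrays, was called in neither operation. It differed by -0.07 (adjusted p = 0.532 in limma) in uninephrectomized and -0.04 (adjusted p = 0.788) in sham dogs. SLC25A46 was also lower, at 9.11 ± 0.17 in uninephrectomized atria against 9.34 ± 0.07 in uninephrectomized ventricles and 9.08 ± 0.13 in sham atria against 9.33 ± 0.10 in sham ventricles (SD, n = 5 each; adjusted p = 0.038 and 0.0388 in limma). These calls held in 25 and 19 of the 32 settings. The sham call was kept whenever an uninephrectomized array was left out. It was lost without any 1 of sham atrial arrays 2, 4 and 5 and ventricular arrays 1 to 4, and with the 3′ gap as a covariate. The other probe set of SLC25A46, with a mean of 6.61 over all arrays, was called in neither operation. It differed by -0.34 (adjusted p = 0.139 in limma) in uninephrectomized and -0.25 (adjusted p = 0.311) in sham dogs.

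SLC25A43, a little characterised member, lay near a signal of 3. It gave 3.00, 2.80, 3.08, 3.28 and 3.23 in uninephrectomized atria, against 3.00, 2.74, 2.99, 2.79 and 2.93 in uninephrectomized ventricles. It gave 3.28, 3.14, 3.25, 2.92 and 2.98 in sham atria, against 2.60, 3.03, 2.89, 2.80 and 2.72 in sham ventricles. The chambers overlapped in both operations. The difference was 0.19 ± 0.10 (SE, adjusted p = 0.188 in limma) in uninephrectomized and 0.31 ± 0.10 (adjusted p = 0.0389) in sham dogs, and averaging its probe sets lowered the sham value to 0.08 (adjusted p = 0.367). The sham call was also lost without any 1 of sham atrial arrays 1 to 3 and ventricular arrays 1, 4 and 5 (0.25 to 0.30, adjusted p from 0.0648 to 0.104).

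Among the 8 tested carriers of cofactors, nucleotides and metals, 1 was higher and 3 lower in the atrium of uninephrectomized dogs, and 2 were higher and 2 lower in sham dogs. SLC25A17, the peroxisomal carrier of CoA, FAD and NAD, had the smallest p of all tested members. It gave 6.09, 6.31, 6.30, 6.36 and 6.29 in uninephrectomized atria, against 5.29, 5.05, 5.22, 5.11 and 4.98 in uninephrectomized ventricles. In sham dogs it gave 6.11, 6.26, 5.57, 6.04 and 6.25 in atria, against 5.34, 5.22, 5.36, 5.09 and 5.26 in ventricles. The chambers were apart in both operations, and the lowest atrium was sham array 3. SLC25A17 was 2.21-fold higher in the atrium of uninephrectomized dogs (difference 1.14 ± 0.11, SE, adjusted p = 3.33e-07 in limma) and 1.73-fold higher in sham dogs (difference 0.79 ± 0.11, adjusted p = 3.24e-05). Both of its other probe sets were called with the same sign in each operation.

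SLC25A33 and SLC25A36, which carry pyrimidine nucleotides for mitochondrial DNA and RNA synthesis, had opposite signs. SLC25A33 gave 9.61, 9.63, 9.82, 9.54 and 9.85 in uninephrectomized atria, against 9.29, 9.37, 9.62, 9.43 and 9.56 in uninephrectomized ventricles. It gave 9.53, 9.87, 9.78, 9.87 and 10 in sham atria, against 9.24, 9.24, 9.64, 9.65 and 9.58 in sham ventricles. The chambers overlapped in both operations, with differences of 0.24 ± 0.11 (SE, adjusted p = 0.103 in limma) in uninephrectomized and 0.34 ± 0.11 (adjusted p = 0.0263) in sham dogs. The sham call was lost without any 1 of sham atrial arrays 2, 4 and 5 and ventricular arrays 1 and 2 (0.28 to 0.33, adjusted p from 0.0567 to 0.0758). SLC25A36 gave 5.54, 5.89, 5.95, 6.13 and 6.07 in uninephrectomized atria, against 6.09, 6.79, 6.14, 6.66 and 6.31 in uninephrectomized ventricles. The sham arrays read 5.90, 5.86, 6.21, 6.18 and 5.61 in atria, against 6.49, 6.80, 6.61, 6.87 and 5.96 in ventricles. Here 1 ventricle of each operation lay within the atrial range. SLC25A36 differed by -0.48 ± 0.18 (SE, adjusted p = 0.0491 in limma) in uninephrectomized and by -0.59 ± 0.18 (adjusted p = 0.0215) in sham dogs. Its uninephrectomized call was lost in 12 of the 20 fits that left out 1 array (adjusted p up to 0.134), and its sham call without sham atrial array 5 or ventricular array 2 or 4 (adjusted p from 0.0542 to 0.0635). Both calls were also lost with the 3′ gap as a covariate. The other probe set of SLC25A36 was called lower in uninephrectomized dogs (-0.60, adjusted p = 0.0163 in limma) but not in sham dogs (-0.38, adjusted p = 0.141).

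SLC25A37 is a mitoferrin, an importer of iron for heme and iron-sulfur clusters, and SLC25A38 carries glycine for the first step of heme synthesis. SLC25A37 gave 6.97, 6.57, 6.78, 6.91 and 6.84 in uninephrectomized atria, against 7.37, 7.44, 7.55, 7.27 and 7.52 in uninephrectomized ventricles. In sham dogs it gave 6.87, 6.80, 6.72, 6.59 and 6.78 in atria, against 7.16, 7.43, 7.74, 7.43 and 7.08 in ventricles. The chambers did not overlap in either operation. The difference was -0.62 ± 0.11 (SE) in both, with an adjusted p in limma of 0.000266 in uninephrectomized and 0.000357 in sham dogs, which is 1.53-fold and 1.54-fold lower in the atrium. Neither of its other 2 probe sets, with means of 3.23 and 1.89 over all arrays, was called.

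SLC25A38 gave 4.79, 4.47, 4.64, 4.58 and 4.64 in uninephrectomized atria, against 5.31, 5.01, 5.64, 5.09 and 4.63 in uninephrectomized ventricles. It gave 4.28, 4.15, 4.40, 4.34 and 4.39 in sham atria, against 4.98, 4.93, 4.27, 4.62 and 4.86 in sham ventricles. A single ventricle of each operation lay within the atrial range, array 5 of the uninephrectomized and array 3 of the sham dogs. The difference was -0.51 ± 0.15 (SE, adjusted p = 0.0163 in limma) in uninephrectomized and -0.42 ± 0.15 (adjusted p = 0.0553) in sham dogs. Of its other 3 tested probe sets, each with a mean under 3, 1 was called lower in uninephrectomized dogs (-0.67, adjusted p = 0.000836) and 2 in sham dogs (-0.58, adjusted p = 0.00351, and -0.27, adjusted p = 0.0396). With the probe sets averaged SLC25A38 was called lower in both, at -0.33 (adjusted p = 0.00118) and -0.27 (adjusted p = 0.00715). Without sham ventricular array 3 the sham difference was -0.54 (adjusted p = 0.0121), and without uninephrectomized ventricular array 3 the uninephrectomized difference was -0.39 (adjusted p = 0.0505). SLC25A26, which imports the methyl donor S-adenosylmethionine, was lower in the atrium of uninephrectomized dogs, at 6.11 ± 0.37 in atria against 6.57 ± 0.22 in ventricles (SD, n = 5; adjusted p = 0.0403 in limma). Its sham difference was -0.09 ± 0.16 (SE, adjusted p = 0.742), and the uninephrectomized call held in 22 of the 32 settings. Of the 7 tested members listed as carnitine, amino acid and glutathione carriers, which leaves out the aspartate/glutamate carriers above, SLC25A38 was the only 1 called. The others include the glutathione carriers SLC25A40, at 8.53 to 9.29 over all arrays, and SLC25A39, under a signal of 3 throughout.

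The remaining members were dim or did not pass. SLC25A15, SLC25A25, SLC25A29, SLC25A31, SLC25A42 and SLC25A53 were below the filter, with means of 1.34 to 1.72 over all arrays, and were left out of the tests above. When the filter was dropped, SLC25A15, an ornithine carrier, was called higher in the atrium of sham dogs and none of the other 5 was called in either operation. SLC25A18, SLC25A23, SLC25A28, SLC25A34, SLC25A35, SLC25A39, SLC25A41, SLC25A44, SLC25A45, SLC25A47 and SLC25A48 were tested but stayed under a signal of 3 in every array. SLC25A16, linked to CoA transport, and the folate and FAD carrier SLC25A32 were brighter and not called. The carnitine/acylcarnitine carrier SLC25A20, central to fatty acid oxidation in heart, was not analysed here.

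Among genes around the carriers, more were called lower than higher in the atrium. Of all tested probe sets 14.7% were called higher and 12.5% lower in uninephrectomized dogs, and 11.2% higher and 9.62% lower in sham dogs. UCP3, an SLC25 family protein with another symbol, had means of 4.07 ± 0.75 in uninephrectomized atria against 8.08 ± 0.52 in uninephrectomized ventricles and 4.10 ± 1.04 in sham atria against 8.22 ± 0.43 in sham ventricles (SD, n = 5 each). Its differences of -4.01 and -4.11 (adjusted p = 1.55e-06 and 1.39e-06 in limma) exceed those of every tested member in size. UCP2, MTCH1 and MTCH2 were not called. Of 18 tested mitochondrial transporters outside the family, 1 was higher and 6 lower in uninephrectomized dogs and 1 higher and 5 lower in sham dogs, with VDAC1, the outer membrane channel, at -0.55 and -0.63 and MICU2, a regulator of calcium uptake, at -0.38 in both. Of 13 tested genes of carrier protein import, 5 were lower in uninephrectomized and 3 in sham dogs and none was higher, among them the outer membrane import subunits TOMM5 (-0.51 and -0.49) and TOMM70 (-0.36 and -0.38).

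Of 16 tested enzymes that use the carried substrates, 1 was higher and 5 lower in uninephrectomized dogs and 0 higher and 5 lower in sham dogs. CKMT2, the mitochondrial creatine kinase that takes up ATP at the carrier, differed by -0.77 and -0.58, and CPT2, of fatty acid import, by -0.36 and -0.39. Of 16 tested genes of mitochondrial content, 5 were lower in uninephrectomized and 4 in sham dogs and none was higher, with the respiratory chain subunits SDHA at -0.35 and -0.38 and UQCRC2 at -0.35 and -0.30. The mean signal of the content genes was 9.86 to 10.23 in uninephrectomized atria against 10.28 to 10.41 in uninephrectomized ventricles, and 9.90 to 10.04 in sham atria against 10.17 to 10.29 in sham ventricles.

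Some cell type markers differed between the chambers as well, and their counts have the same background shares. Of 11 cardiomyocyte markers 6 were lower in the atrium in each operation, with median differences of -0.30 in uninephrectomized and -0.31 in sham dogs. Of 7 fibroblast markers 6 were higher in the atrium of uninephrectomized and 5 in that of sham dogs, with median differences of 1.58 and 1.35. Their mean signal was 9.94 to 10.71 in uninephrectomized atria against 8.38 to 9.02 in uninephrectomized ventricles, and 9.17 to 10.40 in sham atria against 8.41 to 8.92 in sham ventricles. Of 5 smooth muscle markers 4 were higher and 1 lower in uninephrectomized dogs and 3 higher in sham dogs, and of 5 adipocyte markers 1 and 3 were higher. Of 7 endothelial markers 1 was lower in uninephrectomized and 3 in sham dogs. The 2 mesothelial and the 2 red blood cell markers with a probe set stayed under a signal of 3 in all arrays. Their part in the carrier differences was not tested.

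Uninephrectomy against sham gave no called carrier in either chamber. In the atrium 0 of 35 tested members passed in limma, as did 0% of all tested probe sets, and the lowest adjusted p of a member was 0.735. At an unadjusted p under 0.05 there were 2 members (5.71%), against 6.69% of all tested probe sets, SLC25A17 above and SLC25A3 below sham. In the ventricle 0 members passed, again with 0% of all tested probe sets, and the lowest adjusted p was 0.672. At an unadjusted p under 0.05 there were 3 (8.57%), against 6.67%, and SLC25A30, SLC25A38 and SLC25A44 were all above sham, a direction in which 3.47% of all tested probe sets lay. The estimate was positive for 14 members (40%) in the atrium, against 48.9% of all tested probe sets, and for 13 (37.1%) in the ventricle, against 48.5%. Median differences over the tested members were -0.02 in the atrium and -0.06 in the ventricle, beside -0.00 in both over all tested probe sets. The 95% interval reached 0.22 to either side of the estimate for the median member, from 0.13 for SLC25A3 to 0.68 for SLC25A30. The adjusted test needs more than an interval that leaves out 0, as ventricular SLC25A30 and atrial SLC25A3 show, whose intervals did so without a call. No cell type marker was called either, and the 7 fibroblast markers had a median difference of 0.41 in the atrium and 0.11 in the ventricle.

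**Figure D4:**
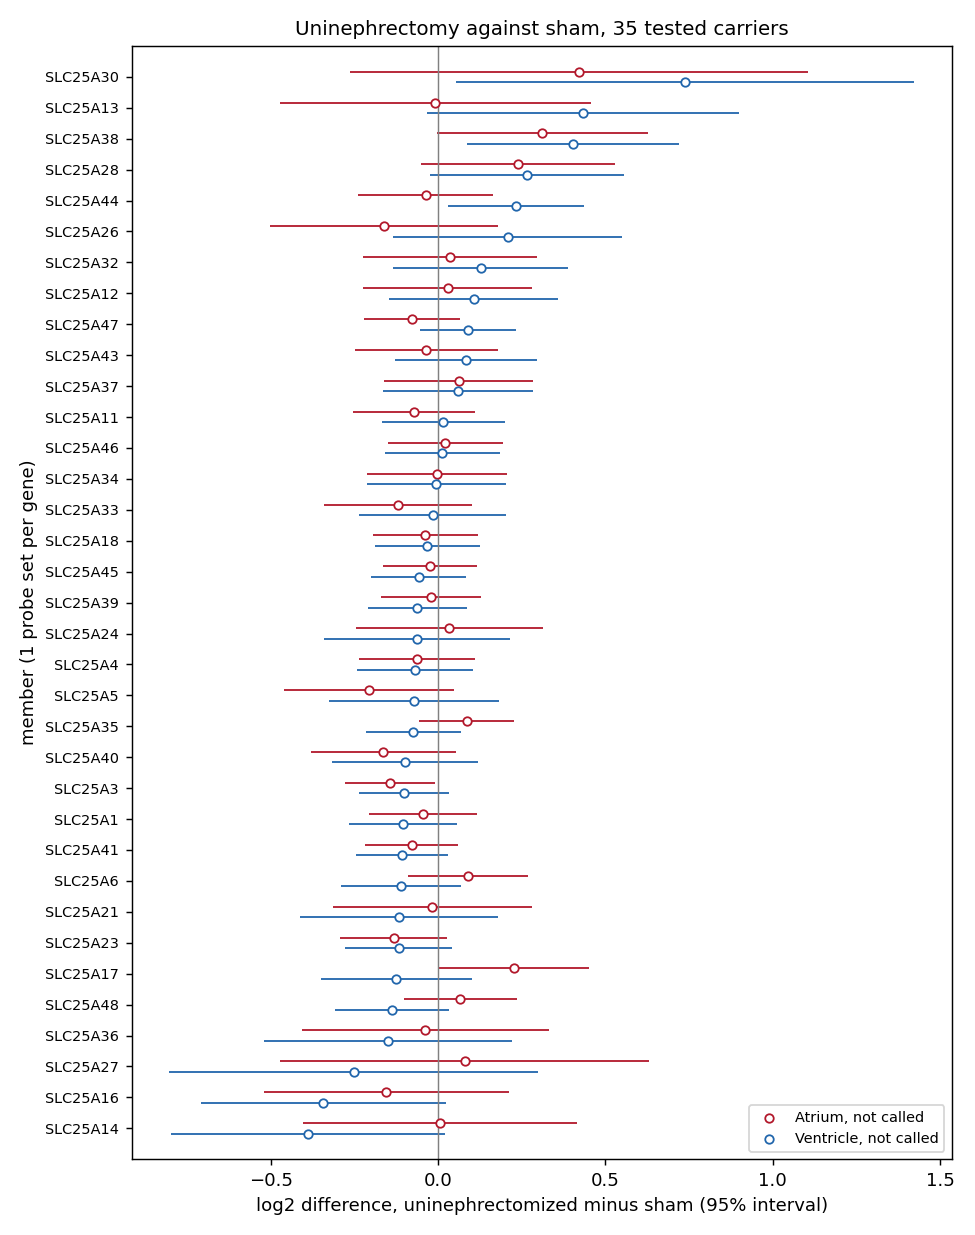
Log2 difference of uninephrectomized minus sham for the 35 tested members in atrium (upper, red) and ventricle (lower, blue), with 95% intervals from limma. No difference has an adjusted p under 0.05, and the estimates run from -0.21 to 0.42 in the atrium and from -0.39 to 0.74 in the ventricle.

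SLC25A38 was above sham in both chambers, with no difference called. In the atrium its 5 uninephrectomized arrays, from 4.47 to 4.79, lay above all 5 sham arrays, from 4.15 to 4.40, the single non-overlapping member (2.86%, against 0.929% of all tested probe sets). The difference was 0.31 ± 0.15 (SE, adjusted p = 0.754 in limma). In the ventricle it was 0.40 ± 0.15 (adjusted p = 0.672), from 4.63 to 5.64 in uninephrectomized and 4.27 to 4.98 in sham dogs, which overlapped. With the 3′ gap as a covariate these values were 0.25 and 0.22, and with all its probe sets averaged 0.12 and 0.18. SLC25A30 differed by 0.42 ± 0.33 (SE, adjusted p = 0.826 in limma) in the atrium and 0.74 ± 0.33 (adjusted p = 0.72) in the ventricle, where 9.80 to 10.75 in uninephrectomized dogs overlapped 8.18 to 10.17 in sham dogs. Without sham ventricular array 3, which had the widest 3′ gap of its group at 1.83, the ventricular value was 0.41, and with the gap as a covariate it was 0.19.

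SLC25A13 differed by 0.43 ± 0.22 (SE, adjusted p = 0.754 in limma) in the ventricle, where uninephrectomized and sham dogs overlapped, and by -0.01 ± 0.22 (adjusted p = 0.997) in the atrium. SLC25A17 differed by 0.23 ± 0.11 (adjusted p = 0.744) in the atrium, from 6.09 to 6.36 in uninephrectomized and 5.57 to 6.26 in sham dogs. Without sham atrial array 3 it was 0.11. In the ventricle SLC25A17 differed by -0.12 ± 0.11 (adjusted p = 0.845). SLC25A3, SLC25A4 and SLC25A5 had negative estimates in both chambers, for SLC25A3 -0.14 ± 0.06 in the atrium (adjusted p = 0.735) and -0.10 ± 0.06 in the ventricle (adjusted p = 0.774). The other probe set of SLC25A3 gave 0.02 in each chamber. For SLC25A5 they were -0.21 ± 0.12 and -0.07 ± 0.12, and for SLC25A14 in the ventricle the estimate was -0.39 ± 0.20 (adjusted p = 0.748).

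**Figure D5:**
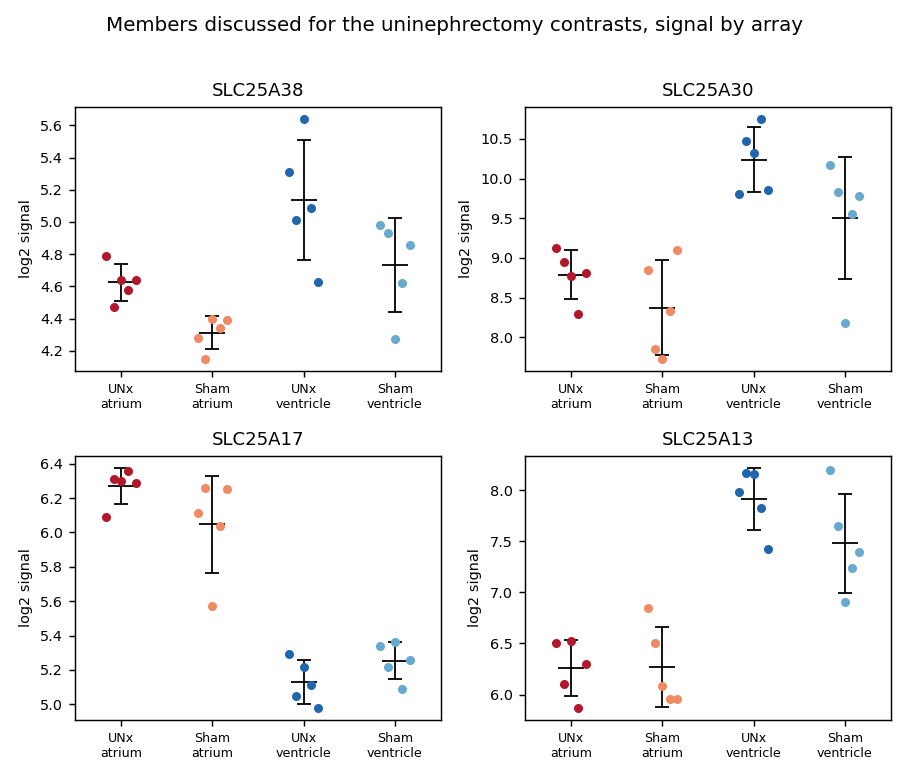
Log2 signal in each of 5 arrays per group, with mean and SD as bars, for SLC25A38, SLC25A30, SLC25A17 and SLC25A13. Atrial SLC25A38 is the only 1 of the 4 whose uninephrectomized arrays, 4.47 to 4.79, all lie above the sham arrays, 4.15 to 4.40, and a single sham ventricle at 8.18 stands below the other sham ventricles of SLC25A30.

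Of the brighter members, SLC25A16 gave 6.53, 6.71, 6.01, 5.82 and 6.48 in uninephrectomized ventricles, against 6.75, 7.07, 6.25, 6.82 and 6.36 in sham ventricles. These overlapped, with a difference of -0.34 ± 0.17 (SE, adjusted p = 0.752 in limma). The other members nearest to a call were dim. SLC25A44, a carrier of branched-chain amino acids, gave 2.05, 2.16, 2.32, 2.15 and 1.70 in uninephrectomized ventricles, against 1.81, 1.94, 1.78, 1.91 and 1.78 in sham ventricles (difference 0.23 ± 0.10, adjusted p = 0.693). SLC25A28, the other mitoferrin, gave 2.44, 2.27, 2.44, 2.09 and 2.64 in uninephrectomized atria, against 2.02, 2.03, 2.15, 1.92 and 2.56 in sham atria (difference 0.24 ± 0.14, adjusted p = 0.777). In the ventricle it gave 2.62, 2.48, 2.70, 2.30 and 1.92 in uninephrectomized dogs, against 2.22, 2.13, 2.04, 2.09 and 2.21 in sham dogs (difference 0.27 ± 0.14, adjusted p = 0.758). Uninephrectomized and sham arrays overlapped in each of these comparisons. SLC25A23 gave 2.24, 2.36, 2.20, 2.31 and 2.29 in uninephrectomized atria, against 2.24, 2.65, 2.33, 2.49 and 2.34 in sham atria (difference -0.13 ± 0.08, adjusted p = 0.777). SLC25A48 gave 1.82, 1.96, 2.02, 1.71 and 1.84 in uninephrectomized ventricles, against 2.12, 2.12, 1.93, 1.82 and 2.03 in sham ventricles (difference -0.14 ± 0.08, adjusted p = 0.765). These overlapped as well.

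Whether the effect of uninephrectomy differed between the chambers, or the chamber difference between the operations, is a single contrast, and 0 of 35 tested members passed it in limma, as did 0% of all tested probe sets. At an unadjusted p under 0.05 there was 1 (2.86%), against 2.97% of all tested probe sets. This was SLC25A17, whose uninephrectomy difference in the atrium exceeded that in the ventricle by 0.35 ± 0.15 (SE, unadjusted p = 0.0328), and by 0.23 without sham atrial array 3. The next were SLC25A48 (0.20 ± 0.11), SLC25A44 (-0.27 ± 0.14) and SLC25A47 (-0.17 ± 0.10), all under a signal of 3. SLC25A44 gave 2.00, 1.89, 1.93, 1.84 and 1.89 in uninephrectomized atria, against 2.03, 1.66, 2.12, 2.01 and 1.92 in sham atria. SLC25A48 gave 1.95, 1.92, 1.92, 1.86 and 2.17 in uninephrectomized atria, against 1.99, 1.85, 1.98, 1.70 and 1.96 in sham atria. The groups overlapped in both. SLC25A47 gave 1.79, 1.87, 1.77, 1.68 and 1.89 in uninephrectomized atria, against 1.85, 1.88, 1.90, 1.85 and 1.91 in sham atria. In the ventricle SLC25A47 gave 1.93, 1.97, 1.86, 2.13 and 1.96 in uninephrectomized dogs, against 1.74, 2.09, 1.77, 1.84 and 1.96 in sham dogs, and these overlapped too. The widest estimates, -0.44 ± 0.31 for SLC25A13 and 0.40 ± 0.28 for SLC25A14, had unadjusted p of 0.176 and 0.169.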

How the data were processed

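Total RNA from left atrium and left ventricle was extracted with Trizol, and 100 ng per sample was labelled with an IVT Express kit and hybridised to Affymetrix canine arrays, per the labels' protocols. The deposited values are log2 probe set signals made by the authors. Their background correction, summarization and normalization are not given in the sources used here, and the array medians are alike but not identical. The values were used as deposited.

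The file holds 43035 probe sets. The 111 control probe sets and the 30% of probe sets with the lowest mean over all arrays (a mean log2 signal under 1.87) were left out, and 30047 were tested. Genes were named from the platform annotation, in which 29264 probe sets have 1 gene symbol, 439 several and 13332 none listed. Low signals compress differences, and arrays with shorter RNA lower probe sets far from the 3′ end.

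limma 3.58.1 in R 4.3.3 fitted 1 mean per group over all 20 arrays (16 residual degrees of freedom), tested 5 contrasts two-sided with lmFit and eBayes, and adjusted p-values by Benjamini-Hochberg over all tested probe sets. A difference was called under 0.05. The fit was tested on simulated data. The 3′ gap is the mean signal difference between 3′ and more 5′ probe sets of control transcripts for ACTB, GAPDH and EEF1A.

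The members and gene lists were chosen with earlier results of these data known. Values in every array are given for called members with the 6 highest and 6 lowest sham chamber differences, the 3 smallest p in each direction of each uninephrectomy contrast, the 2 smallest in each direction of the difference contrast, and SLC25A3, SLC25A4, SLC25A5, SLC25A6, SLC25A11, SLC25A12 and SLC25A13. From each list of other genes at most the 2 with the smallest p are named, besides UCP2, UCP3, MTCH1 and MTCH2.

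Replicate numbers were checked as pairs by correlating the deviations from the group means. In sham dogs, atria and ventricles that share a number gave r of 0.21 to 0.46, each above 0.1, and were taken as paired. The main fit did not use these pairs. Among the fits they entered only those with the replicate number as a block. Uninephrectomized chambers gave r of -0.24 to 0.11. Across the operations, arrays that share a number gave -0.18 to 0.35 in atria, the highest for number 1, and -0.11 to 0.14 in ventricles. Each of these sets had numbers under 0.1, and none of the sets was taken as paired. Alternatives were the filter, the normalization, the spread estimate, the arrays in the fit, the probe sets averaged per gene, the 3′ gap as a covariate, the replicate number as a block, and each array left out. The block was set in both operations in a single fit, so its spread also came from uninephrectomized numbers, which do not pair.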

Additional observations from a re-analysis of the deposited data

Results flagged for a closer look

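In 8 of 140 combinations of member and group, 1 array stood apart from the other 4 by more than Dixon's limit of 0.71 of the group's range, and chance alone would single out about 1 in 20 groups. Of these, 3 concern ventricular array 3 of the sham dogs. There SLC25A24 gave 3.95 against 4.47 to 4.53 in the other arrays (0.897 of the range), SLC25A5 gave 10.49 against 10.25 to 10.31 (0.765) and SLC25A6 gave 11.33 against 10.91 to 11.03 (0.711). In sham ventricles SLC25A21 gave 3.78 in array 4, against 3.10 to 3.28 in the others (0.732). In uninephrectomized ventricles SLC25A32 gave 3.57 in array 3, against 3.20 to 3.27 (0.808). In uninephrectomized atria SLC25A17 gave 6.09 in array 1, against 6.29 to 6.36 (0.763), and SLC25A40 gave 8.53 in array 4, against 8.87 to 8.99 (0.737). In sham atria SLC25A27 gave 5.06 in array 3, against 5.48 to 5.61 (0.764).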

How the results depend on the processing

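The counts of called members in both uninephrectomy contrasts and in their difference were 0 under every alternative run. The uninephrectomized chamber count, 15, was 10 to 16 when single arrays were left out. The sham chamber count, 12, was 7 to 13 when single arrays were left out, and 6 with only the compared groups in the fit. The other settings gave 13 to 16 calls in uninephrectomized and 10 to 14 in sham dogs. With the replicate block the sham chamber count stayed at 12 and 11 members were shared, SLC25A12 being gained and SLC25A1 lost. In uninephrectomized dogs, whose numbers do not pair, the block gave 14, with SLC25A3 (adjusted p = 0.0791) and SLC25A26 (adjusted p = 0.0825) lost and SLC25A33 gained (adjusted p = 0.0362). With the replicate block and the 3′ gap together the sham count was 10 and SLC25A27 was not called (0.80, adjusted p = 0.117 in limma). Quantile normalization turned 3 differences of uncalled members, SLC25A3 in sham dogs to 0.068, and SLC25A4 to 0.049 in uninephrectomized and 0.031 in sham dogs. The cause was not tested. The differences followed here are the 48 that the naming rule gives. Leaving out sham ventricular arrays 3 and 5 together was chosen after seeing the data and gave 16 calls in uninephrectomized and 11 in sham dogs. It brought the sham difference of SLC25A14 to 0.65 (adjusted p = 0.0332 in limma). These arrays, at 5.48 and 5.52, were the highest sham ventricles of SLC25A14. Leaving them out had to raise the difference, so nothing is concluded from that call. A stricter filter, which drops the dimmest 50% of probe sets, leaves 41 of the 48. The low signals of 11 tested members limit what could be seen for them.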
